A study of Mus musculus with 12 samples.

Results

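Lef1, Tcf7, Klf2, Ccr7, S1pr1 and Il7r are genes that naive and memory T cells share, and they were read here by name, not by their values, as 6 of the 18574 genes in the CD45 tables. The cells were the 10385 T and NK cells of 6 CD45 libraries, split by the classes of the authors' deposited annotation. Each library came from 1 tumour of 4T1, a mouse mammary carcinoma line used as a model of triple-negative breast cancer, grown in the mammary fat pad of a female BALB/c mouse of 9 to 11 weeks. The tumours were grown from Clone E, Clone EM1, Clone EM2, Clone EM3 and Clone M, each expanded from a single cell of the line and together described as covering epithelial, intermediate and mesenchymal states, and from Parental 4T1. The labels name no drug, transgene or deletion in any group, and they do not say which clone holds which state. After enzymatic digestion and red cell lysis, leukocytes were enriched on anti-CD45 magnetic beads and fixed, per the labels.

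Because each clone is represented by 1 tumour, differences between clones carry no test. All intervals below are 95% intervals that cover counting error only, the error of having counted a finite number of molecules. They do not cover the spread between tumours. T and NK cells numbered 3159 in EM1, 1962 in EM2, 1894 in E, 1792 in EM3, 842 in the parental tumour and 736 in M, out of 6791 to 11024 cells per library. The 6 CD45 libraries held 28083101 to 57116299 UMIs, where a UMI (unique molecular identifier) marks 1 captured RNA molecule. Levels are given as CPM, the UMIs of a gene per 1000000 UMIs of the same cells, after summing over the cells of 1 class in 1 tumour. Clones E and EM3 shared 1640 droplet barcodes and Clones EM1 and EM2 shared 1186, against 60 to 161 in every other pair of CD45 libraries. The labels name no run. If libraries that share many barcodes were run together, M and E were not, and the clone and the run cannot be told apart in their comparison.

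A naive T cell is one that has left the thymus and has not yet met its antigen. Lef1 and Tcf7 encode LEF1 and TCF-1, related DNA-binding proteins that work with beta-catenin and Groucho-type partners and keep T cells in a naive or self-renewing state. In tumours and chronic infection Tcf7 also marks the PD-1-bearing CD8 T cells that still divide and replace exhausted ones. Klf2 encodes a zinc-finger transcription factor of resting T cells that drives S1pr1, and both are shut down after activation and in cells that settle in tissue. S1pr1 encodes the sphingosine-1-phosphate receptor by which lymphocytes leave lymph nodes and tissues for the blood and lymph, and CD69 removes it from the surface. Ccr7 encodes the receptor for CCL19 and CCL21 that brings naive and central memory T cells, and mature dendritic cells, into lymph nodes. Il7r encodes the alpha chain of the interleukin-7 receptor, the survival receptor of naive and memory T cells, which is usually lost from short-lived effector cells and low on regulatory T cells. FOXO1 is known to drive Klf2, S1pr1, Ccr7 and Il7r.

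On the GRCm38 (mm10) assembly with the GENCODE vM21 annotation, Lef1 lies on chromosome 3 from 131110471 to 131224356 on the plus strand, and S1pr1 lies on the same chromosome from 115710433 to 115715072 on the minus strand. Tcf7 occupies chromosome 11 from 52252371 to 52283014 and Ccr7 the same chromosome from 99144196 to 99155077, both on the minus strand. Klf2 spans 72319033 to 72321656 of chromosome 8 on the plus strand, and Il7r spans 9505788 to 9530176 of chromosome 15 on the minus strand. The RefSeq promoter windows held 4 of the 6 genes (Lef1, Tcf7, Klf2 and Il7r). The Klf2 window is shown because Klf2 drives another member, S1pr1, with which it was found in the same CD8 T cells, and because its core promoter holds letters that the MEF2 family is known to bind. It covers 221 bases directly before the annotated gene start, chr8:72318812-72319032, plus strand, GRCm38.p6, with capitals marking the MEF2 letters CTAAATT, found on both strands in overlapping matches.
Klf2 promoter: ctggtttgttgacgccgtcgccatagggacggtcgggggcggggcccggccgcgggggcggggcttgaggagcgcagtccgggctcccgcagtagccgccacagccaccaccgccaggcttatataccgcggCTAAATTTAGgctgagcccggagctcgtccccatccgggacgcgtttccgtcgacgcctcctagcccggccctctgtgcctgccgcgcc
CTAAATT was found on either strand in 754 of 32851 RefSeq windows of 250 bases (2.30%). The Klf2 window held none of the other letters searched on both strands, which were GTAAACA for FOXO factors (3.17% of windows), CTTTGAT for TCF and LEF factors (3.21%) and AGGAAGT for ETS factors (7.69%). A match describes the letters and shows no binding, and a missing match says only that these letters are not in this window.

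The authors' broader names for T cells were checked against marker genes before use. The 5 main T cell classes summed to 3713 to 7525 CPM of T cell markers per class and tumour, against 305 to 701 in NK cells, and the Foxp3+ Cd4+ class held 5871 to 7106 CPM of regulatory T cell markers. The Gzmb+ Cd8+ class held 1034 to 2199 CPM of CD8 markers and the Lef1+ Cd8+ class 536 to 1081. The tables held 4 of 5 listed NK markers, which summed to 1203 to 2344 CPM in NK cells, with Klra8 at 0 in every tumour. Innate lymphoid cell markers summed to 797 to 1498 CPM in NK cells, and in M they were above the NK markers (1498 against 1260 CPM). The Foxp3+ Cd4+ class held 3554 to 4442 CPM of that list. The Cd44- Cd4+ class went against its name in part, since it held 276 to 674 CPM of CD8 markers beside 207 to 469 CPM of the CD4 list, and its cells are taken apart below. Transcripts of granulocytes (910 to 2657 CPM) and macrophages (645 to 2665 CPM) were present in all 5 main T cell classes, while B cell markers stayed at 0 to 41.3 CPM there.

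Of the 6 genes, 5 were highest by their median over tumours in the Cd44- Cd4+ class among the 5 main T cell classes and NK cells, and Il7r was not. How many of all genes are highest in that class was not counted, so this count has no share to stand beside. In single tumours, Tcf7 in M and the parental tumour and Ccr7 in M were highest in another class. The classes were made by the authors by clustering cells on their expression, and one is named after Lef1, so differences between classes describe the classes and carry no test. Lef1 stood at 1028, 1119, 1165, 883, 674 and 1264 CPM in the Cd44- Cd4+ cells of E, EM1, EM2, EM3, M and the parental tumour. In Lef1+ Cd8+ cells of the same tumours it stood at 258, 378, 307, 291, 200.1 and 475 CPM. The lowest Cd44- Cd4+ value, in M, was above the highest Lef1+ Cd8+ value, in the parental tumour, so that the class carrying the gene's name was second to the Cd44- class. In Gzmb+ Cd8+ cells, the cytotoxic class, Lef1 was at 19.0, 72.2, 94.8, 5.15 and 75.9 CPM in the 5 clones, where the value of EM3 is 4 UMIs.

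Medians over tumours place Lef1 at 1073 CPM in Cd44- Cd4+, 299 in Lef1+ Cd8+, 216 in Cd44+ Cd4+, 94.8 in NK, 83.7 in Foxp3+ Cd4+ and 72.2 in Gzmb+ Cd8+ cells, the last over the 5 clones because the parental tumour gave only 8 Gzmb+ Cd8+ cells. The ranges of the lowest 3 overlapped, as did those of Lef1+ Cd8+ (200.1 to 475) and Cd44+ Cd4+ (118 to 283). Lef1 stayed at or under 8.97 CPM in granulocytes and 1.71 CPM in macrophages of the same libraries.

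Among the 5 main T cell classes, Tcf7 differed less between the 3 that held the most of it. It was at 508, 574, 498, 436, 242 and 438 CPM in Cd44- Cd4+ cells, in the order E, EM1, EM2, EM3, M and parental, which is kept below. Cd44+ Cd4+ cells held 275, 317, 347, 373, 365 and 512 CPM, and Lef1+ Cd8+ cells held 236, 311, 290.5, 327, 416 and 372 CPM. These 3 ranges overlapped, and in M the Cd44- class was the lowest of the 3. Tcf7 was at 16.6, 78.7, 82.1, 25.8 and 180.2 CPM in Gzmb+ Cd8+ cells of the 5 clones. The 8 parental cells had no UMI of it among 12364, a depth at which 3 UMIs would be 243 CPM. Foxp3+ Cd4+ cells held 18.8 to 61.2 CPM and NK cells 104 to 292 CPM, which did not overlap.

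Klf2 followed the same order at its top. Cd44- Cd4+ cells held 2656, 2701, 2871, 2355, 3264 and 2988 CPM of Klf2, and every tumour's Cd44+ Cd4+ value was lower, at 1153, 1469, 1327, 1770.5, 2432 and 2102 CPM. Lef1+ Cd8+ cells held 1272, 941, 888, 1419, 1305 and 1859 CPM. Gzmb+ Cd8+ cells differed widely between tumours, with 101 CPM in E and 118 in EM3, 296 in EM1 and 360.1 in EM2, and 939 in M. NK cells held 652 to 1211 CPM of Klf2 and Foxp3+ Cd4+ cells 489.6 to 1344. Klf2 is not particular to T cells, and granulocytes of the same libraries held 640 to 931 CPM and B cells a median of 954 CPM. In the Total libraries, endothelial cells, in which Klf2 responds to blood flow, held a median of 685 CPM.

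S1pr1 was at 889, 1141, 1331, 818, 1105 and 1605 CPM in Cd44- Cd4+ cells and at 433, 582, 646, 549, 552 and 757 CPM in Cd44+ Cd4+ cells. The ranges did not overlap. Lef1+ Cd8+ cells held 326, 205, 191, 405, 176 and 682 CPM, Foxp3+ Cd4+ cells 149 to 250.3 CPM, and Gzmb+ Cd8+ cells of the 5 clones 17.4, 82.0, 107, 18.0 and 123 CPM. By the median NK cells had the least, 28.6 CPM, with a range of 5.75 to 51.9 CPM that rests on 1 UMI in E and 1 in the parental tumour. In EM3 they held 47.8 CPM, above the Gzmb+ Cd8+ cells there. Macrophages of the same libraries held a median of 66.0 CPM.

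Ccr7 was at 2504, 3190.2, 3285, 2279, 1727 and 2945 CPM in Cd44- Cd4+ cells. It stayed high in classes where Lef1, Tcf7 and S1pr1 were low, with 1472, 1817, 2065, 1354, 2907 and 1868 CPM in Foxp3+ Cd4+ cells and 305, 759, 935, 910.4 and 1242 CPM in the Gzmb+ Cd8+ cells of the 5 clones. Its median in Lef1+ Cd8+ cells was 728 CPM, below the 910.4 of Gzmb+ Cd8+ cells, with overlapping ranges. Dendritic cells, which use the same receptor to reach lymph nodes, held 2105 to 4274 CPM, B cells 723 to 1849 CPM, and granulocytes 18.7 to 51.8 CPM.

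Il7r had another order. Its median was 420.1 CPM in Foxp3+ Cd4+, 399 in Cd44+ Cd4+, 241 in Cd44- Cd4+, 188 in both Lef1+ Cd8+ and Gzmb+ Cd8+, and 86.0 in NK cells. Foxp3+ Cd4+ cells held 360.2 to 559 CPM and Cd44+ Cd4+ cells 340.4 to 455 CPM, which overlapped, while the highest Cd44- Cd4+ value was 335 CPM in EM2. Macrophages held 101 to 149 CPM of Il7r, and granulocytes 15.9 to 32.9. The small Trdc+ DN class, named for a gamma-delta T cell receptor gene and reaching 20 cells only in EM1, EM2 and M, held 276, 673 and 459.6 CPM of Il7r there, and its Ccr7 differed from 2170.1 CPM in EM1 (55 UMIs) to 121 in M (5 UMIs).

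**Figure D1:**
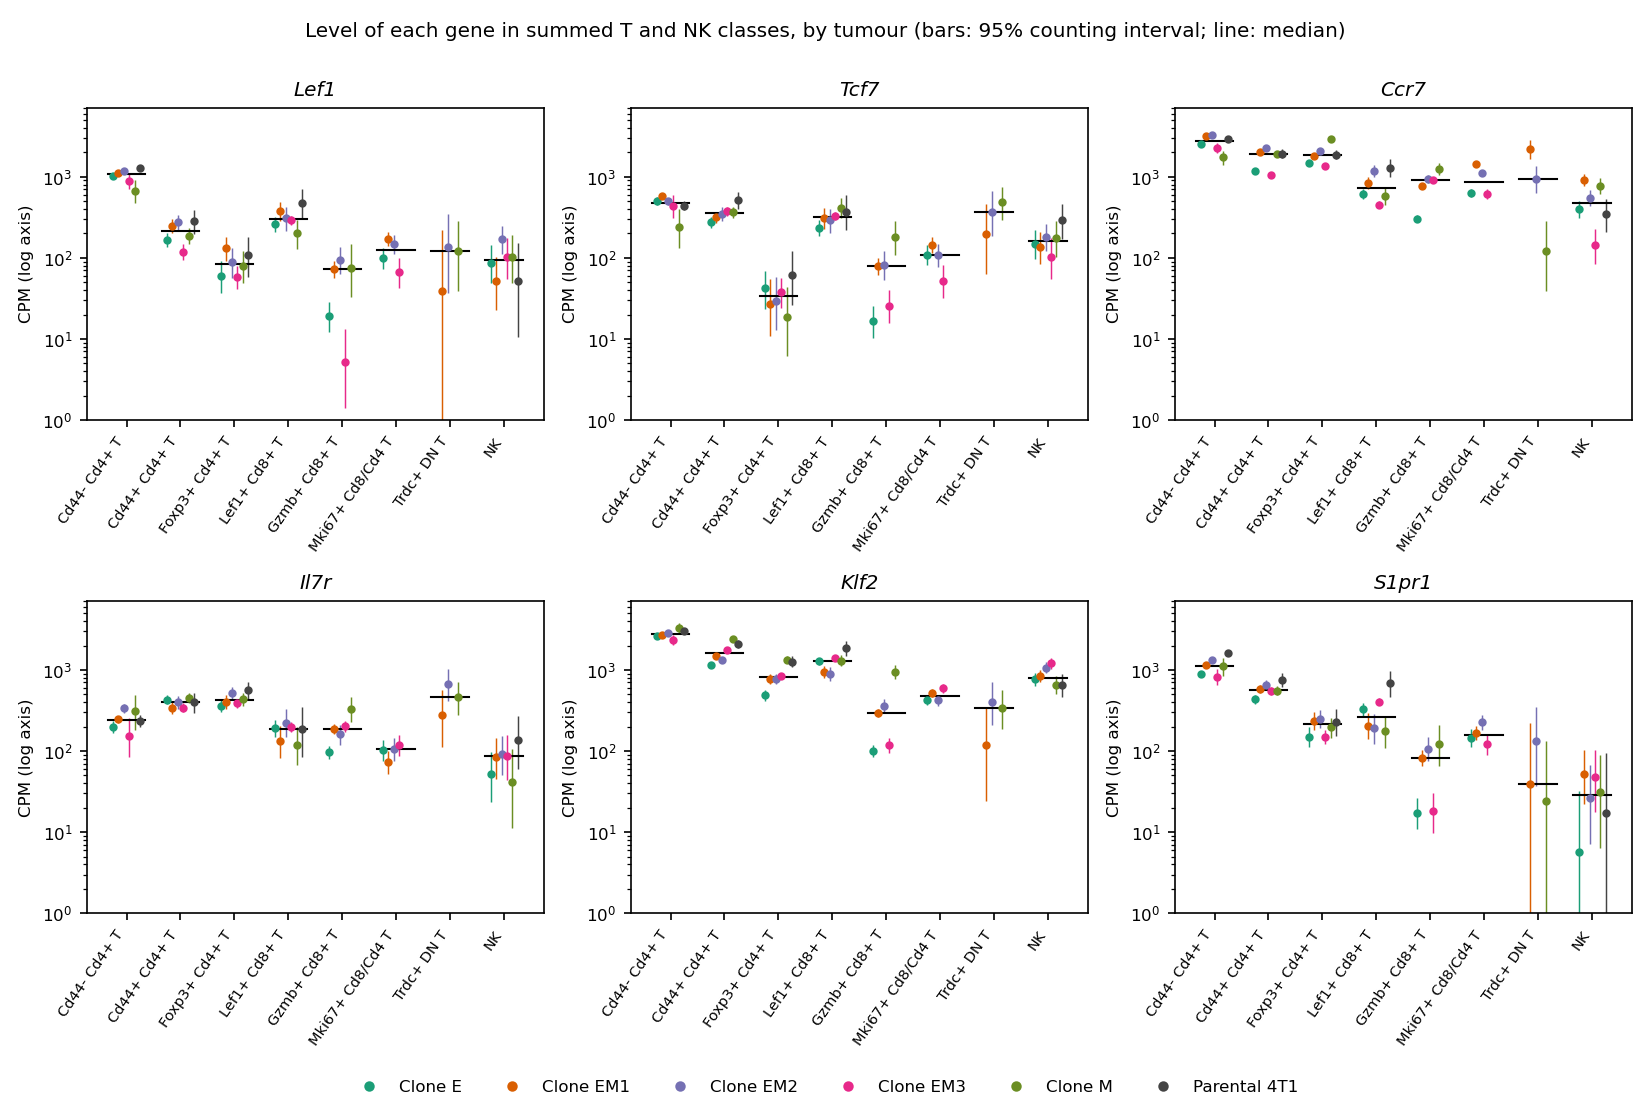
Level of each gene in CPM (log axis) by T cell class and NK cells, 1 point per tumour with at least 20 cells of the class, a line for the median and bars for the 95% counting interval, cut off at 1 CPM. Lef1, Tcf7, Klf2, Ccr7 and S1pr1 have their highest median in the Cd44- Cd4+ class among the 5 main T cell classes and NK cells, while Il7r has its highest there in Foxp3+ Cd4+ cells.

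The 2 CD8 classes differed in Lef1, Tcf7, Klf2 and S1pr1 and not in one direction for Ccr7 and Il7r. A gene was counted as higher where the median over tumours of the log2 ratio, taken with 10 CPM added to both values, was at least 1, and only genes with a median of at least 50 CPM in either class entered. On this measure 4 of 6 members were higher in Lef1+ Cd8+ than in Gzmb+ Cd8+ cells, against 2.55% of 5172 genes. Lef1, after which the class is named, is among them. The median of the 6 members was 1.69 and that of all these genes 0.01. Since the parental tumour had 8 Gzmb+ Cd8+ cells, the values without it are given beside. The log2 ratio was 1.92 for Lef1 (2.24 without the parental tumour), 2.53 for Tcf7 (1.86), 2.42 for S1pr1 (1.23) and 1.46 for Klf2 (1.63). Without the parental tumour 4 of 6 members were still higher, against 2.32% of 5165 genes. With the parental zeros of Tcf7 and S1pr1 set to 3 UMIs, their log2 ratios over 6 tumours were 1.78 and 1.34, and the median of the members was 1.40.

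The size of the CD8 difference was not the same in the tumours. Lef1 was 13.6-fold higher in Lef1+ Cd8+ cells in E (8.61 to 22.3) and 56.5-fold in EM3 (21.8 to 209), against 5.23-fold in EM1, 3.24-fold in EM2 and 2.64-fold in M (1.15 to 6.77). Klf2 was 12.6-fold higher in E (10.3 to 15.4) and 12.0-fold in EM3 (9.69 to 15.0), 3.17-fold in EM1, 2.47-fold in EM2 and 1.39-fold in M (1.08 to 1.80). S1pr1 went from 22.5-fold in EM3 and 18.7-fold in E to 1.43-fold in M (0.688 to 3.09). E and EM3, the pair with the most shared barcodes, had larger folds between the CD8 classes for these genes than the other 3 clones. With 1 tumour per clone this difference between tumours was not tested, nor was the part of a shared run in it.

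Ccr7 and Il7r went opposite ways in different tumours. Ccr7 was higher in Lef1+ Cd8+ than in Gzmb+ Cd8+ cells of E, at 2.02-fold (1.70 to 2.39), and of EM2, at 1.26-fold (1.02 to 1.55). It was lower in EM3, at 0.496-fold (0.438 to 0.561), and in M, at 0.464-fold (0.343 to 0.623), and at 1.11-fold in EM1. Il7r was at 1.96-fold in E (1.44 to 2.66) and 0.362-fold in M (0.184 to 0.680).

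**Figure D2:**
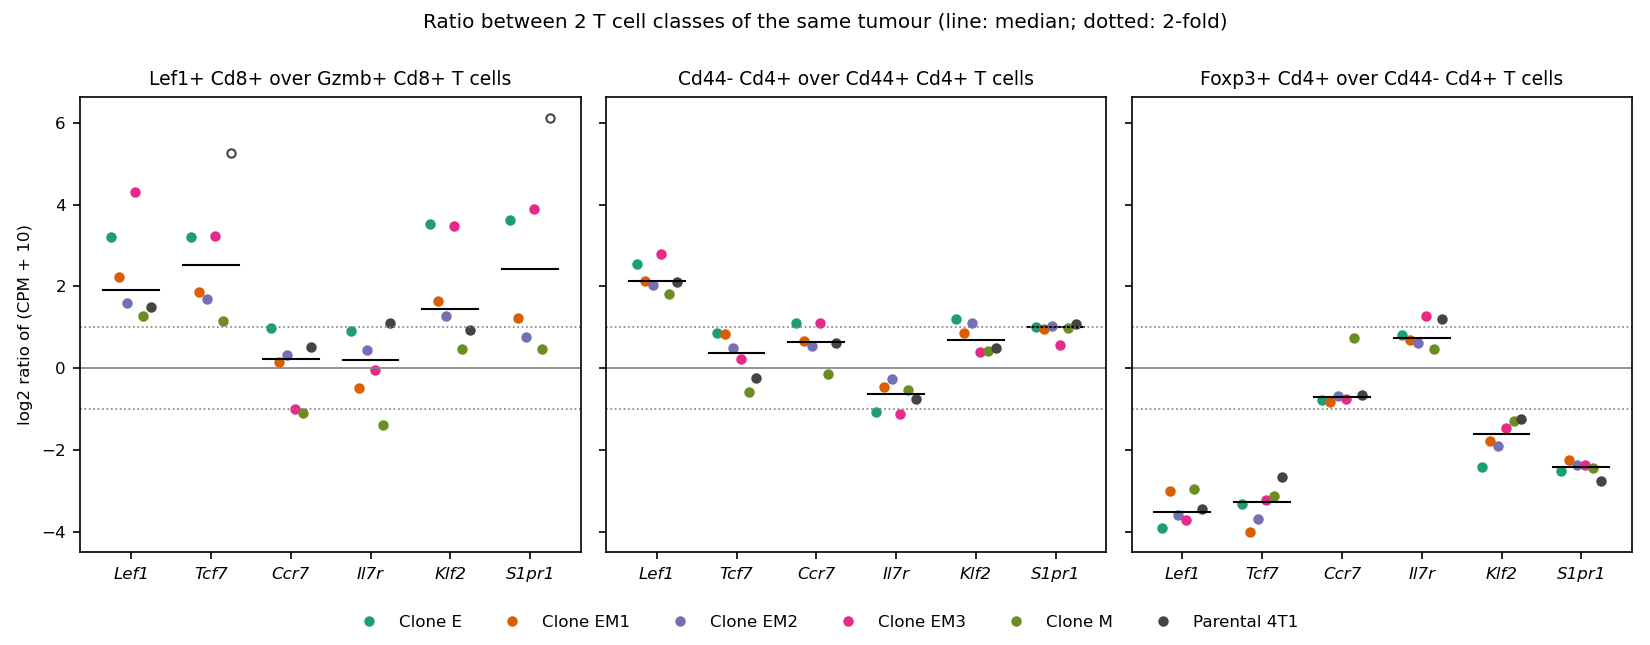
Log2 ratio of each gene between pairs of T cell classes, with 10 CPM added to both values, 1 point per tumour, a black line for the median and dotted lines at 2-fold. Hollow points mark the parental tumour where the second class had no UMI of the gene. The Lef1+ over Gzmb+ ratios of Lef1, Tcf7, Klf2 and S1pr1 lie above 0 in the 5 clones, and those of Ccr7 and Il7r lie on both sides.

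Among CD4-named cells, the Cd44- class had more Lef1 and S1pr1 than the Cd44+ class, an antigen-experienced class by its Cd44, and less Il7r. By the same count 2 of 6 members were higher, against 2.95% of 5180 genes, with a median of 0.66 for the members and 0.09 for all these genes. Lef1 was at 2.13 on the log2 scale and S1pr1 at 1.00, which sits on the limit. Leaving out E, EM2 or the parental tumour put S1pr1 under the limit, so that 1 of 6 remained in each case. Lef1 was 6.17-, 4.51-, 4.20-, 7.46-, 3.65- and 4.47-fold higher in the 6 tumours, and S1pr1 1.49- to 2.12-fold. Klf2 was higher in the Cd44- class of all 6 tumours by 1.33- to 2.30-fold, with a median log2 of 0.69. Il7r lay below 1 in all 6, at 0.445- to 0.837-fold, with a median log2 of -0.64. Tcf7 lay above 1 in E, EM1, EM2 and EM3 and below it in M (0.663) and the parental tumour (0.854).

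Foxp3+ Cd4+ cells, the regulatory T cells, had less Lef1, S1pr1 and Klf2 than Cd44- Cd4+ cells. Of the 5 members with a median of at least 50 CPM in both classes these 3 were at least 2-fold lower. Among the 5249 genes with 50 CPM in either class, a wider filter, 7.72% were at least 2-fold lower, with a median of -0.16. Tcf7 reached 50 CPM only in the Cd44- class, where it is high, so that its ratio is a description. The median log2 ratio was -3.51 for Lef1, -3.27 for Tcf7, -2.40 for S1pr1 and -1.61 for Klf2, with all 6 tumours below 1 for each. Ccr7 was at -0.71 and lay below 1 in 5 tumours (0.570- to 0.634-fold) and above it in M, at 1.68-fold (1.37 to 2.09). Il7r was at 0.75 and lay above 1 in all 6 tumours, from 1.41-fold in M (0.851 to 2.45) to 2.54-fold in EM3.

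Lef1+ Cd8+ cells also had 4 of 6 members at least 2-fold lower than Cd44- Cd4+ cells (2.12% of 5187 genes), with log2 ratios of -1.92 for S1pr1, -1.74 for Ccr7, -1.64 for Lef1 and -1.19 for Klf2. Tcf7 was at -0.58 and Il7r at -0.44. The Cd44- class enters this comparison and the one with Foxp3+ cells, so they share its values.

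The Cd44- Cd4+ class was then split by the co-receptor UMIs of single cells, a split chosen after its marker values had been seen. Of its 3353 cells in the 6 tumours, 853 (25.4%) had a UMI of Cd4 and none of Cd8a or Cd8b1, 738 (22.0%) had a UMI of Cd8a or Cd8b1 and none of Cd4, 24 had both and 1738 (51.8%) had neither. The Cd8-only share was 15.7% to 37.2% per tumour, highest in M. By contrast 3.63% of Cd44+ Cd4+ and 2.05% of Foxp3+ Cd4+ cells were Cd8-only. The Gzmb+ Cd8+ class was 78.4% Cd8-only and 1.65% Cd4-only, and 9.30% of its cells had both. The Lef1+ Cd8+ class was 49.9% Cd8-only and 7.60% Cd4-only, with neither in 41.3% of its cells (33.0% in EM3 to 67.5% in EM2), and it held 89.8 to 424 CPM of gamma-delta T cell markers per tumour, against 0 to 29.2 in Gzmb+ Cd8+ cells. With only the Cd8-only cells of both CD8-named classes, in the 5 clones, 4 of 6 members were again at least 2-fold higher in the Lef1+ class, against 2.66% of 5226 genes. The Cd44- Cd4+ class thus held cells of both lineages. Cells with a UMI of a co-receptor are on the whole the deeper cells of a class.

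Within the Cd44- class, 5 of the 6 genes were lower in the Cd8-only than in the Cd4-only cells by their counting intervals, and Ccr7 was not. The share of all genes lower by this measure was not taken, so the count describes these genes only. Lef1 was at 793 CPM in Cd8-only and 1394 CPM in Cd4-only cells, a fold of 0.569 (0.520 to 0.622). S1pr1 was at 825 and 1464 CPM (0.563, 0.516 to 0.615), Klf2 at 2064 and 3289 CPM (0.627, 0.593 to 0.664) and Il7r at 167 and 365 CPM (0.458, 0.378 to 0.553). Tcf7 was at 468 and 628 CPM (0.746, 0.659 to 0.844). Ccr7 was at 2916 and 2875 CPM, a fold of 1.01 (0.962 to 1.07). In the 4 tumours with at least 20 cells on both sides, all folds of Lef1, Tcf7, Klf2, S1pr1 and Il7r lay below 1, though in the parental tumour only the interval of Klf2 excluded 1, with Lef1 at 0.833 (0.651 to 1.06) and S1pr1 at 0.876 (0.705 to 1.09). Ccr7 was at 1.10-, 0.977- and 0.963-fold in E, EM1 and EM2 and at 1.31-fold (1.13 to 1.52) in the parental tumour.

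**Figure D3:**
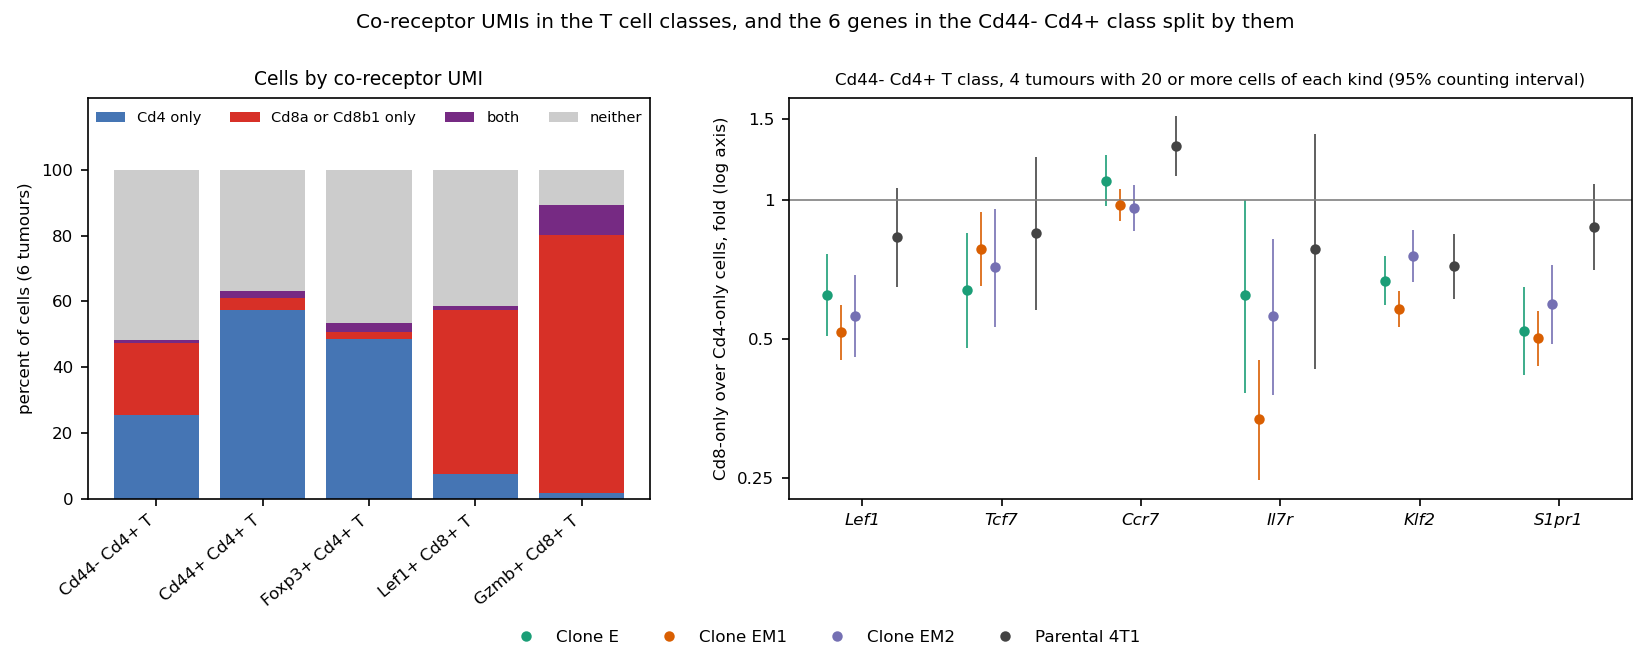
Left, percent of cells with UMIs of only Cd4, only Cd8a or Cd8b1, both or neither, by class over the 6 tumours. Right, fold of each gene in Cd8-only over Cd4-only cells of the Cd44- Cd4+ class (log axis) in the 4 tumours with at least 20 cells of both kinds, with 95% counting intervals, where all points of Lef1, Tcf7, Klf2, S1pr1 and Il7r lie below 1 and those of Ccr7 lie around it.

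The Cd8-only cells of the Cd44- class were set beside those of both CD8-named classes. Summed over the 6 tumours, which hold the classes in unequal shares, they had 3.89-fold more Ccr7, 2.76-fold more Lef1, 2.21-fold more S1pr1, 1.52-fold more Klf2 and 1.48-fold more Tcf7 than the Cd8-only cells of the Lef1+ Cd8+ class, with Il7r at 0.848-fold (0.683 to 1.05). Only E, EM1 and EM2 had at least 20 cells on both sides, and the folds differed between them. Ccr7 was at 4.24-fold in E, 2.55-fold in EM1 and 1.35-fold in EM2 (1.09 to 1.69), and Lef1 at 2.86-, 1.49- and 2.39-fold. The interval of Tcf7 excluded 1 in E, at 1.54-fold (1.09 to 2.19), and held 1 in EM1, at 1.08-fold (0.725 to 1.68), and in EM2, at 1.41-fold.

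Against the Cd8-only cells of the Gzmb+ Cd8+ class the folds over the 6 tumours were 24.3 for Lef1, 21.2 for S1pr1, 11.5 for Klf2, 10.7 for Tcf7 and 4.94 for Ccr7, with Il7r at 1.07 (0.887 to 1.28). In single tumours Lef1 was at 47.4-fold in E, 12.8-fold in EM1 and 9.08-fold in EM2, and S1pr1 at 49.6-, 10.7- and 9.63-fold. In these 3 tumours Lef1, S1pr1, Klf2 and Ccr7 were thus higher in the Cd8-only cells annotated outside the CD8-named classes, by intervals above 1 in both comparisons.

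Restricting the CD4 comparison to Cd4-only cells also changed its values. Cd4-only cells of the Cd44- class held 7.68-fold more Lef1, 3.08-fold more S1pr1, 2.27-fold more Klf2, 1.83-fold more Tcf7 and 1.75-fold more Ccr7 than Cd4-only cells of the Cd44+ class. These folds sum over the 6 tumours. The Il7r fold was 0.948 (0.827 to 1.08), and it lay on opposite sides of 1 in different tumours, at 0.549 in E (0.384 to 0.772) and 1.34 in EM1 (1.03 to 1.75). Only 5 tumours had at least 20 Cd4-only cells in both classes, M being left out. In the median over these 5 tumours 4 of 6 members passed the limit, against 4.5% of 5159 genes, with Tcf7 just past it at 1.03. With all cells of the classes and M left out, 2 of 6 passed it. The Tcf7 interval held 1 in EM3, at 1.48-fold (0.845 to 2.44), and in the parental tumour, at 0.954-fold (0.646 to 1.42). It lay above 1 in E, EM1 and EM2. Ccr7 was at 1.04-fold in the parental tumour (0.871 to 1.25). Against Cd4-only Foxp3+ cells the folds were 19.0 for Tcf7, 16.3 for Lef1, 8.87 for S1pr1, 5.05 for Klf2, 1.62 for Ccr7 and 0.898 for Il7r (0.777 to 1.04). The higher Il7r of the whole Foxp3+ class was thus not seen beyond counting error in the Cd4-only cells summed over tumours. In single tumours the fold was 0.569 in E (0.386 to 0.827), 0.621 in the parental tumour, 0.896 in EM3 and 0.929 in EM2, below 1 in these 4, and 1.13 in EM1 (0.819 to 1.59), and only the interval of E excluded 1.

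The genes around the members were read from lists of their pathways. The effector list holds Cd44 and Gzmb, after which classes are named, so its counts between those classes do not stand apart from the names. Listed genes entered with 50 CPM on either side, as all genes did. Some may thus have entered only through the side where they are high, and all list counts in this report are descriptions. Of 16 further genes of the naive T cell programme, 12 were measured in the CD8 comparison and 8 of them were higher in Lef1+ Cd8+ than in Gzmb+ Cd8+ cells (2.55% of all genes), with a list median of 1.36 on the log2 scale against 0.01 over all genes. Among them were Igfbp4 (1.98) and Txk (1.83), a T cell kinase. Of 13 measured effector genes 7 were lower (3.04% of all genes), led by Prf1 (-2.73), which encodes perforin, Ifng (-1.86) and Nkg7 (-1.83), and 1 was higher, the chemokine receptor gene Cxcr3 (1.65). Of 7 measured genes of exhaustion and its progenitor state 4 were lower, namely Lag3 (-3.48), Havcr2 (-2.56), Pdcd1 (-1.79) and Tox (-1.68), all inhibitory receptors but the last, a transcription factor. Xcl1 (1.67) was higher. Lef1+ Cd8+ cells were not free of these transcripts, with a median of 946 CPM of Pdcd1 against 3386 and 446 CPM of Gzmb against 903.

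The partners of the single members were read between the CD8 classes. None of 9 measured genes of the interleukin-7 pathway was past 2-fold in either direction (5.59% of all genes, list median 0.21), nor was any of 4 genes of sphingosine-1-phosphate signalling (0.54). Of 6 measured partners and targets of TCF and LEF proteins, 1 was higher (2.55% of all genes), Axin2, a target of beta-catenin signalling (1.90), with a list median of 0.70. Myb, at 0.99, lay just under the limit.

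The same lists set the CD4-named classes apart. Between Cd44- and Cd44+ cells, 9 of 13 naive programme genes were higher (2.95% of all genes), led by Rflnb (3.26), Igfbp4 (2.77), Txk (2.75) and Actn1 (2.53), and 6 of 9 effector genes were lower (5.64% of all genes), led by the tissue homing receptor gene Cxcr6 (-3.83) and Ifng (-1.98). Of 7 measured exhaustion genes 3 were lower, Pdcd1 (-3.38), Lag3 (-2.58) and Havcr2 (-1.09), and 1 was higher, the co-stimulatory receptor gene Cd27 (1.54). Cish, an inhibitor induced by interleukin-2 family cytokines, was the only 1 of 9 interleukin-7 pathway genes past the limit (-2.05). Myb, a transcription factor that works beside TCF-1, was higher (2.87).

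Between Foxp3+ and Cd44- cells, 10 of 13 naive programme genes were lower (7.72% of all genes), led by Igfbp4 (-4.04), Rflnb (-4.02) and Bcl2 (-3.46), a survival gene that interleukin-7 induces. By comparison 2 of 9 interleukin-7 pathway genes were higher (8.4% of all genes), Cish at 1.92 and Crlf2, which encodes the partner chain of Il7r in the receptor of TSLP, at 1.36. Effector genes were higher in 5 of 9 cases, led by Gzmb (4.24), and exhaustion genes in 4 of 7, led by Pdcd1 (3.59).

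To compare single cells, each cell was thinned to 1000 UMIs and shallower cells were left out, 1655 of 3353 in the Cd44- Cd4+, 645 of 1900 in the Cd44+ Cd4+ and 89 of 974 in the Lef1+ Cd8+ class. Thinning gives every cell the same depth, since the median depth before thinning went from 891 UMIs in a Cd44- Cd4+ class to 2211 in a Gzmb+ Cd8+ class. A Cd44- Cd4+ cell held a UMI of 3.48 of the 6 members on average, a Cd44+ Cd4+ cell of 1.92, a Lef1+ Cd8+ cell of 1.60, a Foxp3+ Cd4+ cell of 1.29, an NK cell of 0.901 and a Gzmb+ Cd8+ cell of 0.541. At least 3 members were seen in 79.3% of Cd44- Cd4+ cells (1347 of 1698), 31.1% of Cd44+ Cd4+, 23.5% of Lef1+ Cd8+, 9.81% of Foxp3+ Cd4+, 2.98% of Gzmb+ Cd8+ and 2.47% of NK cells. The Gzmb+ Cd8+ mean was 0.284 in E and 1.16 in M.

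Lef1 was detected in a median of 59.2% of thinned Cd44- Cd4+ cells (61.0% before thinning) and 23.8% of Lef1+ Cd8+ cells (33.9% before thinning). Most single cells of the class named after Lef1 thus showed no Lef1 UMI at this depth. The share was 3.51% in Gzmb+ Cd8+, 5.33% in Foxp3+ Cd4+ and 8.09% in NK cells, against 0.237% of granulocytes, whose median depth before thinning was 690 to 1219 UMIs. Tcf7 was detected in 34.4% of Cd44- Cd4+, 25.8% of Cd44+ Cd4+, 25.3% of Lef1+ Cd8+, 13.3% of NK, 4.34% of Foxp3+ Cd4+ and 4.09% of Gzmb+ Cd8+ cells. Ccr7 was detected in 84.5% of Cd44- Cd4+ and 24.6% of Gzmb+ Cd8+ cells, against 3.27% of granulocytes. The S1pr1 share of NK cells was 2.16%, against 1.96% of granulocytes, and is read as background. The Il7r share of NK cells was 7.22%, above the 2.56% of granulocytes and below the 11.4% of macrophages.

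Within each CD8 class several pairs of members were found in the same cells more often than their single shares give. The number expected is the product of both shares in each tumour, summed over the tumours with at least 100 thinned cells of the class. In Lef1+ Cd8+ cells (647 cells of 2 tumours, E and EM3), Klf2 and S1pr1 met in 119 cells against 81.8, a ratio of 1.46, Lef1 and S1pr1 in 44 against 32.9 (1.34), Ccr7 and S1pr1 in 50 against 35.3 (1.42), and Lef1 and Tcf7 in 37 against 31.5 (1.17), all above in 2 of 2 tumours. Lef1 and Il7r met in 17 against 20.1, above in 0 of 2. In Gzmb+ Cd8+ cells (1448 cells of 4 tumours), where the genes are rare, Klf2 and S1pr1 met in 23 cells against 5.51, above in 3 of 4 tumours, Lef1 and S1pr1 in 13 against 2.45 and Tcf7 and Klf2 in 17 against 4.75, both above in 4 of 4.

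Ccr7 and Il7r, the receptors whose class ratio turned between tumours, also met in Gzmb+ Cd8+ cells, in 73 cells against 41.5, above in 4 of 4 tumours. Il7r met Klf2 in 19 cells against 19.99 and S1pr1 in 7 against 7.29 there. In Lef1+ Cd8+ cells Ccr7 and Il7r met in 26 against 21.6, Il7r and Klf2 in 68 against 49.6, both above in 2 of 2 tumours, and Il7r and S1pr1 in 32 against 22.9, above in 1 of 2. In Cd44+ Cd4+ cells (1192 cells) Ccr7 and Il7r met in 143 against 151. Klf2 and S1pr1 met in 260 Cd44+ Cd4+ cells against 163, and in Cd44- Cd4+ cells (1619 cells), where most cells carried both, in 835 against 801. These pairs are descriptions over sparse counts, and cells of a tumour are not replicates.

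Pairs with genes of dysfunction changed with the cells that were joined. Over both CD8 classes together (2364 cells, 5 tumours), Tcf7 met Pdcd1 in 127 cells against 179. The 2 genes differ in opposite directions between the classes. Within Lef1+ Cd8+ cells they met in 75 against 76.5, and within Gzmb+ Cd8+ cells in 28 against 35.6, above in 1 of 4 tumours. S1pr1 met Pdcd1 in 71 Lef1+ Cd8+ cells against 79.0, and Lef1 met it in 49 against 68.5, both below in 2 of 2 tumours. Tcf7 met Slamf6, a marker of progenitor exhausted cells, in 17 Lef1+ Cd8+ cells against 12.0, above in 1 of 2 tumours. In Gzmb+ Cd8+ cells they met in 3 against 0.807, above in 3 of 4. Over both CD8 classes together they met in 23 against 10.1, above in 5 of 5. S1pr1 met Cd69, whose protein pulls it from the surface, in 16 Lef1+ Cd8+ cells against 15.5. The pair differed between classes. In Gzmb+ Cd8+ cells it met in 6 against 1.98, above in 3 of 4 tumours. In Cd44+ Cd4+ cells it met in 28 against 41.7, above in 0 of 5. Cd44- Cd4+ cells gave 70 against 78.4 and Foxp3+ Cd4+ cells 13 against 15.8.

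Between tumours, members were higher in the Gzmb+ Cd8+ cells of M than in those of E. Klf2, Ccr7 and Il7r, the 3 members that reached 50 CPM in both tumours, were all at least 2-fold higher. Among the 5403 genes with 50 CPM in either tumour, a wider filter, 6.07% were at least 2-fold higher. Lef1, Tcf7 and S1pr1 reached the 50 CPM needed to enter only in M, where they are high, so that their folds are a description. Tcf7 was at 180.2 CPM in M and 16.6 in E, a fold of 10.9 (5.52 to 21.2). Klf2 was at 939 and 101 CPM (9.28, 7.07 to 12.2), S1pr1 at 123 and 17.4 (7.09, 3.28 to 14.7), Ccr7 at 1242 and 305 (4.07, 3.31 to 4.98), Lef1 at 75.9 and 19.0 (4.00, 1.55 to 9.20) and Il7r at 332 and 97.2 (3.41, 2.28 to 5.01). The M values rest on 63 cells, with 8 UMIs of Lef1, 13 of S1pr1 and 19 of Tcf7, against 561 cells in E.

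Of 9 measured naive programme genes 4 were at least 2-fold higher in M (6.07% of all genes), with a list median of 0.22 on the log2 scale against 0.07 over all genes. Of 14 measured effector genes 2 were higher and 5 lower (6.5% of all genes). The genes named next were singled out after their values were seen. Cxcr3 was 30.4-fold higher in M, Klf3, a relative of Klf2, 14.8-fold and Bach2, a repressor of effector genes, 3.54-fold. Nkg7 was at 0.359-fold, Lag3 at 0.345-fold, Zeb2, a driver of terminal effector cells, at 0.246-fold and Eomes at 0.172-fold. CD8 markers summed to 1034 CPM in M and 1959 in E, Cd8-only cells made up 69.8% of the class in M and 90.4% in E, and granulocyte markers stood at 1736 and 1168 CPM. The part of these in the result was not tested. Klf2, Ccr7 and Il7r stayed at least 2-fold higher in M with only Cd8-only cells (44 against 507) and with the cells below the median share of other cells' markers, where S1pr1 was at 1.19 and Klf2 at 2.38 on the log2 scale.

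In Lef1+ Cd8+ cells 0 of 6 members were past 2-fold between M and E, against 10.6% of 5378 genes in either direction, a count near that share. The fold of M over E was 1.77 for Tcf7 (1.22 to 2.52), 1.03 for Klf2, 0.938 for Ccr7, 0.775 for Lef1, 0.629 for Il7r and 0.541 for S1pr1 (0.326 to 0.858). Taking the mean of single cells instead put 1 member past the limit, and restricting the cells by markers put 1 or 2 past it. For Klf2, the CD8 classes of M thus lay close together with Lef1+ Cd8+ cells at the level of E and Gzmb+ Cd8+ cells above it.

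Klf2 was also higher in M than in E in Cd44+ Cd4+ and Foxp3+ Cd4+ cells. It was at 2432 against 1153 CPM in Cd44+ Cd4+ cells, 2.11-fold (1.91 to 2.33), the only 1 of 6 members past the limit there (2.51% of 5139 genes), and at 1344 against 489.6 CPM in Foxp3+ Cd4+ cells, 2.75-fold (2.28 to 3.31), 1 of the 5 members that entered (2.67% of 5086 genes). In Cd44- Cd4+ cells it was at 1.23-fold. The higher Klf2 of M was not particular to T cells. B cells held 1310 CPM in M, their highest value, and 509 CPM in E, their lowest. Dendritic cells, granulocytes and macrophages also had their highest Klf2 in M, at 231, 931 and 301 CPM. NK cells did not, with 661 CPM in M and 765 CPM in E. Ccr7 was at 1.98-fold in Foxp3+ Cd4+ and 1.64-fold in Cd44+ Cd4+ cells and at 0.690-fold in Cd44- Cd4+ cells. Of the members in Cd44- Cd4+ cells, Tcf7 was lower in M at 0.476-fold (0.257 to 0.811), 1 of 6 against 9.86% of 5740 genes, on 43 cells. Of 13 measured naive programme genes in these cells 7 were lower in M and 1 was higher (11.0% of all genes), with a list median of -1.10 against 0.10 over all genes. Of 10 effector genes 5 were higher and 1 lower, with a list median of 1.13.

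EM3 and E were the pair with the most shared barcodes, and their comparison uses the same Clone E values as the one above. In Lef1+ Cd8+ cells 0 of 6 members were past 2-fold, against 0.794% of 5164 genes, with folds of EM3 over E from 0.735 for Ccr7 (0.622 to 0.870) to 1.39 for Tcf7 (1.08 to 1.79). In Gzmb+ Cd8+ cells Ccr7 was at 910.4 against 305 CPM, 2.98-fold higher (2.63 to 3.39), 1 of the 3 members that entered (0.786% of 5090 genes). Il7r was at 202 against 97.2 CPM, a fold of 2.08 (1.63 to 2.66) and a log2 ratio of 0.98 with 10 CPM added, just under the limit. Klf2 was at 1.17-fold there. Tcf7, S1pr1 and Lef1 were under 50 CPM in both tumours, with 20, 14 and 4 UMIs in EM3, and were left out of the count. So of the 3 members that entered only Ccr7 passed the limit in the Gzmb+ Cd8+ cells of EM3 over E, and Il7r was higher by its counting interval. The difference between the genes was not tested. The co-receptor UMIs of the class also differed. Cells with UMIs of both co-receptors made up 17.4% of it in EM3 and 3.57% in E, and Cd8-only cells 75.6% and 90.4%. The CD4 list summed to 341 CPM in EM3 and 87.7 in E. The part of these in the higher Ccr7 and Il7r of EM3 was not tested.

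**Figure D4:**
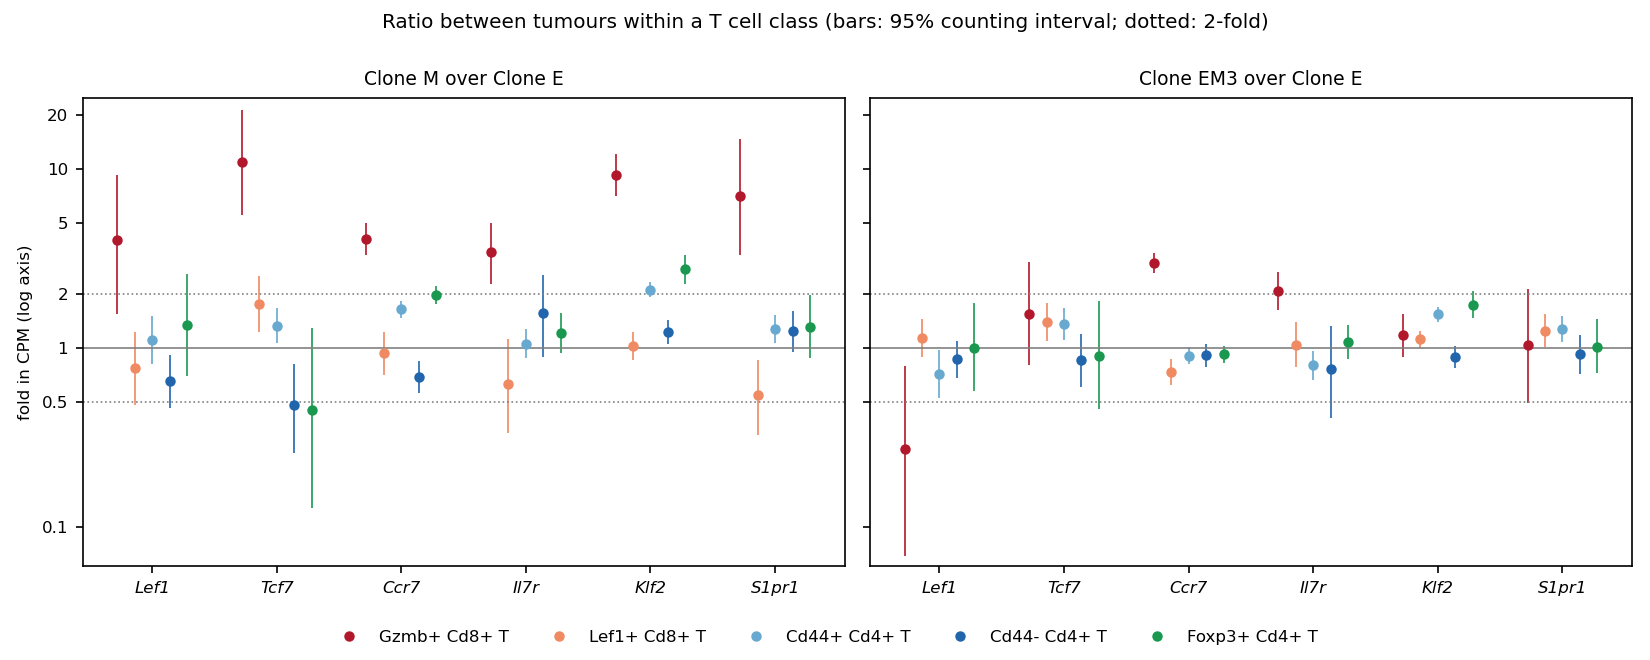
Fold of each gene in M over E and in EM3 over E (log axis) by class, with 95% counting intervals and a line at 1. In Gzmb+ Cd8+ cells all 6 genes lie above 1 for M over E, and for EM3 over E Ccr7 (2.98) and Il7r (2.08) lie above 1 by their intervals.

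Klf2 was at 1.54-fold in Cd44+ Cd4+ and 1.74-fold in Foxp3+ Cd4+ cells of EM3 over E. In NK cells 1 of the 5 members that entered, Ccr7, was lower in EM3 (5.79% of 5185 genes), at 143 against 397 CPM or 0.361-fold (0.202 to 0.614). EM1 and EM2, the other pair with many shared barcodes, had 0 of 6 members past 2-fold in Cd44- Cd4+ cells, against 0.354% of 5084 genes, and none past it in the Gzmb+ Cd8+ (1.48% of genes), Lef1+ Cd8+ (11.8%), Cd44+ Cd4+ (2.05%) and Foxp3+ Cd4+ (3.86%) classes. Il7r was the farthest from 1 in Cd44- Cd4+ cells, at 0.737-fold in EM1 over EM2 (0.628 to 0.866). In NK cells 1 of 6 members, Lef1, was lower in EM1 (5.13% of 5162 genes), at 0.306-fold (0.120 to 0.696), on 8 UMIs.

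Over all T cells of a tumour, the spread of the members between tumours was smaller once classes were weighted equally. Lef1 was at 254, 524, 529, 140.5 and 172 CPM in E, EM1, EM2, EM3 and M and 837 CPM in the parental tumour, a spread of 5.96-fold between the highest and the lowest. S1pr1 was at 293, 576, 669, 278, 366 and 1117 CPM, a spread of 4.02-fold. Cd44- Cd4+ cells made up 67.3% of T cells in the parental tumour, 47.4% in EM1, 47.3% in EM2, 22.5% in E, 6.26% in M and 3.59% in EM3. With the 5 main classes given equal weights in every tumour, the spread shrank to 1.89-fold for Lef1 and 1.80-fold for S1pr1. It shrank from 2.64- to 1.61-fold for Ccr7, from 2.63- to 1.64-fold for Klf2, from 2.00- to 1.28-fold for Tcf7 and from 1.81- to 1.29-fold for Il7r. These weights include the 8 Gzmb+ Cd8+ cells of the parental tumour, and without that class the spreads were 1.87-fold for Lef1, 1.82-fold for S1pr1 and 1.33- to 1.71-fold for the other 4.

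**Figure D5:**
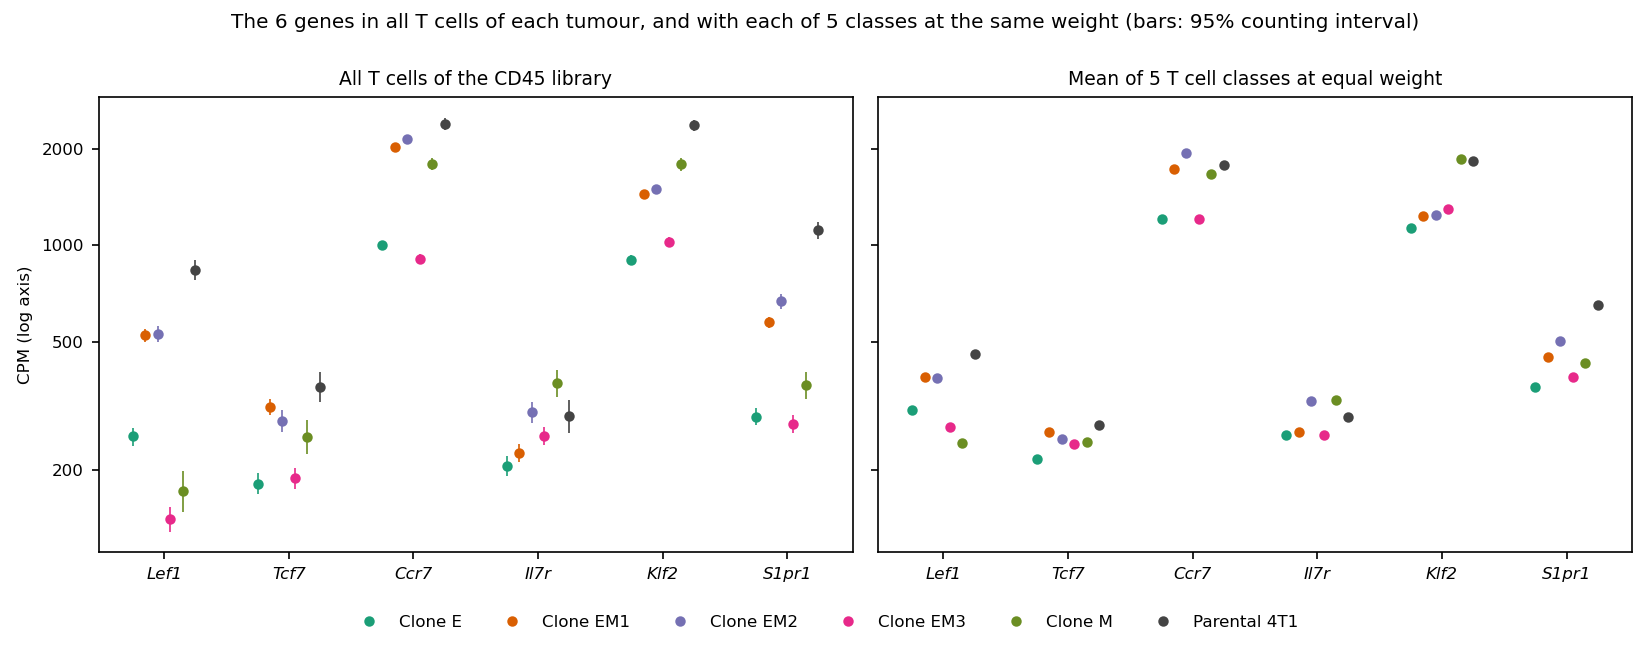
Level of each gene in CPM (log axis) over all T cells of each tumour, with 95% counting intervals (left), and with equal weights for the 5 main classes (right), 1 point per tumour. The parental tumour is highest over all T cells for Lef1, Tcf7, Ccr7, Klf2 and S1pr1, and the spread of Lef1 falls from 5.96-fold to 1.89-fold with equal weights.

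The Total libraries, made from the whole digest of the same tumours, gave lower values of all 6 members in their joint T and NK class than the CD45 libraries in all 6 tumours, with spreads between tumours of 6.13-fold for Lef1, 4.37-fold for S1pr1 and 1.86- to 2.55-fold for the other 4.

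In the median over tumours, NK cells carried Klf2 and Tcf7 at a higher level than Gzmb+ Cd8+ cells, with which they share cytotoxic genes, but M did not show this. The median log2 ratio of NK over Gzmb+ Cd8+ was 1.51 for Klf2 and 1.37 for Tcf7, 2 of 6 members past the limit against 5.11% of 5167 genes, and without the parental tumour Tcf7 was at 1.07. With the parental zero of Tcf7 set to 3 UMIs it was at 0.89, under the limit. Lef1 was at 0.59, S1pr1 at -0.68, Ccr7 at -0.72 and Il7r at -0.93. Without the parental tumour Il7r was at -1.07, so that 1 member was then lower in NK cells, against 4.89% of 5239 genes. Klf2 in NK cells was at 765, 844, 1071, 1211, 661 and 652 CPM, and Tcf7, which NK cells need during their development, at 150, 136, 183, 104, 176 and 292 CPM. In M the Gzmb+ Cd8+ cells held 939 CPM of Klf2 and 180.2 CPM of Tcf7, folds of NK over Gzmb+ Cd8+ of 0.704 (0.506 to 0.974) and 0.974 (0.476 to 1.98), and in the 8 cells of the parental tumour Klf2 was at 971 CPM. Both calls ended with the NK cells of the finer annotation column, which calls further cells NK. There 0 of 6 members were past the limit, against 10.3% of 5406 genes, with Klf2 at 0.68 and Tcf7 at 0.28, and Il7r turned to 0.81 and Lef1 to -0.29.

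The genes whose levels went most like each member were sought among 6934 genes over 42 sums of class and tumour, which share libraries and classes. By Pearson's r of log2 levels, given as a description, S1pr1 went most like Rgs10 (0.90) and Dusp10 (0.90), Klf2 like Rasa3 (0.89) and Lef1 (0.81), and Lef1 like Rflnb (0.86) and Foxp1 (0.84). Tcf7 went most like Pik3cd (0.81), Ccr7 like Stat5a (0.82) and Ccm2 (0.80), and Il7r like Ppp4r2 (0.78). Among the members, r was 0.81 for Lef1 with S1pr1 and with Klf2, 0.77 for Klf2 with S1pr1, 0.72 for Lef1 with Tcf7 and 0.70 for Ccr7 with S1pr1. It was 0.10 for Tcf7 with Ccr7 and 0.06 for Tcf7 with Il7r.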

How the data were processed

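Per the file headers, each library came with a table of raw UMI counts per gene and cell, deposited by the authors after their own filters, and a table of the authors' cell annotation with UMI and gene counts, the mitochondrial percent and the same quantity as a fraction, and a ratio of genes to UMIs per cell. Only the counts and the annotation were used. Cell Ranger and mm10 are named in the submitters' processing notes, without roles, and the labels name both a fixed-RNA kit and 3′ reagents, which leaves the chemistry unsettled. The genes and lists were chosen with earlier results of these data known. The values of 1 listed gene are not reported here. Other genes are named where they were the largest of a listed pathway past the limit, the 3 most alike, or singled out after their values were seen.

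Doublet scores by the Scrublet method (2 simulated pairs per cell, 6% expected, 2000 variable genes, 30 components, limit 0.242) removed 3574 of 115612 cells and 9 of 10394 T and NK cells. Counts were summed per class and tumour. CPM were given exact Poisson intervals, shares Clopper-Pearson intervals and folds exact binomial intervals, and log2 ratios used a pseudocount of 10 CPM. A gene entered a comparison with 50 CPM on either side. Values of a class rest on at least 20 cells unless stated. The calculation was tested on simulated data. Alternatives were a pseudocount of 1 CPM, all cells, TMM factors (edgeR 4.0.16), the mean over single cells, cells without other cells' markers, thinning to 500 UMIs or none, leaving out each tumour, the Total libraries and the finer NK column. Python 3.11.15, numpy 2.4.6, scipy 1.17.1, scanpy 1.11.5 and R 4.3.3 were used.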

Additional observations from a re-analysis of the deposited data

Results flagged for a closer look

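Ccr7 and Il7r differed between the CD8 classes in opposite directions in different tumours, each by a counting interval that excluded 1. Ccr7 in Lef1+ Cd8+ over Gzmb+ Cd8+ cells was at 2.02-fold in Clone E and 1.26-fold in EM2, and at 0.496-fold in EM3 and 0.464-fold in M. Il7r in the same classes was at 1.96-fold in E and 0.362-fold in M. Ccr7 in Foxp3+ Cd4+ over Cd44- Cd4+ cells was at 1.68-fold in M, against 0.588-fold in E, 0.570-fold in EM1, 0.629-fold in EM2, 0.594-fold in EM3 and 0.634-fold in the parental tumour. With 1 tumour per clone the difference between tumours was not tested.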

How the results depend on the processing

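The counts of 4 of 6 members higher in Lef1+ Cd8+ than in Gzmb+ Cd8+ cells, 4 of 6 lower in Foxp3+ than in Cd44- Cd4+ cells (Tcf7 among them, which entered only through the Cd44- class, and 3 of 5 without it), 0 of 6 between EM3 and E in Lef1+ Cd8+ cells and 0 of 6 between EM1 and EM2 in Cd44- Cd4+ cells stayed within 1.5 times under every alternative that could be run. The count of members higher in Cd44- than in Cd44+ Cd4+ cells went from 2 to 1 with TMM factors, with the mean of single cells and with cells free of other cells' markers (EM1 and EM2 only), was 1 to 2 when a tumour was left out, and was 4 with only co-receptor-typed cells (5 tumours, M left out). The count between M and E in Lef1+ Cd8+ cells went from 0 to 1 with the mean of single cells, to 2 with the cells below the median marker share and to 1 with co-receptor-typed cells. The cause was not tested. The last 2 choices, and all for M over E in Gzmb+ Cd8+ cells, were made after seeing the data. No value past the limit changed sign, but smaller ones did. Il7r in Lef1+ Cd8+ over Gzmb+ Cd8+ cells went from 0.21 on the log2 scale to -0.03 without E, EM2 or the parental tumour and to -0.14 with co-receptor-typed cells, and Ccr7 there from 0.24 to -0.05 with the cells below the median marker share. Single members between EM1 and EM2, M and E, and EM3 and E, all under the limit, also did. Cells free of other cells' markers were too few for the other comparisons. No paired analysis was possible because every group held 1 tumour with no second replicate number, which holds for comparisons between clones. Classes were compared within each tumour, except in the folds summed over the 6 tumours. With the finer NK column the count of members higher in NK than in Gzmb+ Cd8+ cells, also chosen after seeing the data, went from 2 to 0. Depth limits, among others, the 8 Gzmb+ Cd8+ cells of the parental tumour, the 63 of M, the 43 Cd44- Cd4+ cells of M and single-cell shares, since Lef1 in Lef1+ Cd8+ cells was detected in 13.3% of cells at 500 UMIs, 23.8% at 1000 UMIs and 33.9% without thinning.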

Other observations

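The 2 annotation columns disagreed on NK cells, and the members differed between the cells concerned. The finer column calls NK another 329 cells that the broader one calls other myeloid cells, between 14 and 102 per tumour. Those cells held 484 CPM of Il7r (442 to 528) against 77.5 CPM in the 507 NK cells of both columns, a fold of 6.24 (4.76 to 8.32) that lay above 1 in 6 of 6 tumours. Summed over the 6 tumours, Lef1 was lower in them at 9.67 against 98.5 CPM, and Tcf7 at 1.93 against 160.2 (2 UMIs). Ccr7 was lower at 162 against 536 CPM and Klf2 at 227 against 894. The share of all genes that were lower was not taken. S1pr1 was at 19.3 against 30.2 CPM, a fold of 0.640 (0.334 to 1.22), and at 22.4 against 5.75 CPM in E. They had no UMI of Ncr1, which encodes the NK receptor NKp46, against 177 CPM in the other NK cells, and 7.74 CPM of Eomes, an NK transcription factor, against 1174. Klrk1, which encodes the NK receptor NKG2D, was at 244 against 322 CPM. Gata3 was at 12.6 against 297 CPM and Rora at 24.2 against 499 CPM, both genes of innate lymphoid cells. With these 329 cells added, the class that the finer column calls NK had medians over tumours of 301 CPM for Il7r, 67.7 for Tcf7, 48.9 for Lef1 and 537 for Klf2.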
